A study of Mus musculus with 16 samples.

Results

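Chromatin accessibility was compared between thymic Treg cells and preTreg cells, the CD25-positive cells without Foxp3 that are regarded as their precursors, in libraries paired by mouse. ATAC-seq uses a transposase that inserts into open DNA, so the reads collected in a peak measure how accessible that stretch of chromatin is. The comparison used 4 Treg and 4 preTreg libraries of the 16 in the series, and the 72364 of 73442 deposited peaks whose normalised read count averaged at least 10 over these 8 libraries. Treg cells were sorted from the thymus as CD4+CD8-TCRβ+ cells with the Foxp3-GFP reporter, and preTreg cells as CD4+CD8-TCRβ+ cells with CD25 and without the reporter. Mice T7 and T8 had the genotype CNS4KO/YFoxp3GFP/Y and are called CNS4-deficient, and mice T9 and T10 had the genotype CNS4FL/YFoxp3GFP/Y and are called CNS4-sufficient. CNS4 is a conserved non-coding sequence of the Foxp3 locus. All 4 mice were on the C57BL/6J background and carried the Foxp3GFP allele, and the sources used here do not give their age. Each mouse gave 1 Treg and 1 preTreg library, so the step was read within mice, with 2 mice per genotype.

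Foxp3 is the transcription factor that defines regulatory T cells, which restrain immune responses to self. In the thymus, developing CD4 cells with a strong response to self antigen switch on CD25, the alpha chain of the IL-2 receptor encoded by Il2ra, and IL-2 acting through STAT5 then helps some of them to switch on Foxp3. Treg cells keep the IL-2 receptor and display inhibitory molecules such as CTLA-4 and proteins that activate TGF-beta, and they make little IL-2 themselves. Because the reporter and CD25 were used to sort the cells, accessibility of Foxp3 and Il2ra between the populations is tied to the sort.

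The 8 libraries had between 6580712 and 11437401 reads in peaks, the preTreg libraries lying between 8808350 and 9436558, and the size factors that scale them ran from 0.822 to 1.45. In a principal component analysis of these libraries, PC1 held 57.7% of the variance and separated Treg from preTreg. PC2 held 12.7% and set the Treg library of T7 apart, with a score of -86.8 beside -14.1 for the Treg library of T8, 45.4 for that of T9 and 43.0 for that of T10. PC3 held 7.77% and separated the preTreg libraries by genotype. Accessibility was measured in bulk, so a larger share of cells with an open site and a more open site in each cell cannot be told apart. Values for single libraries are normalised read counts in the order T7, T8, T9 and T10, folds are Treg over preTreg on the log2(value + 1) scale with the standard error, and a peak was called at a limma adjusted p below 0.05 over all 72364 peaks.

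The sequences of 5 promoters that a called peak overlaps in whole or in part are shown before the values. The 2 largest folds in each direction by the naming rule were Gm30327, a predicted gene, and Ccr6, a chemokine receptor gene, among those more accessible in Treg, and Ifng, the interferon-gamma gene, and Il2, the IL-2 gene, among those less accessible. Itgb8, an integrin gene, was added after its values were seen. Each line gives the 250 bases before the RefSeq gene start on the strand of the gene, 5′ to 3′, build GRCm38.p6, with matches to 9 fixed motifs in capitals.
Gm30327, 1:153990967-153991216, plus strand: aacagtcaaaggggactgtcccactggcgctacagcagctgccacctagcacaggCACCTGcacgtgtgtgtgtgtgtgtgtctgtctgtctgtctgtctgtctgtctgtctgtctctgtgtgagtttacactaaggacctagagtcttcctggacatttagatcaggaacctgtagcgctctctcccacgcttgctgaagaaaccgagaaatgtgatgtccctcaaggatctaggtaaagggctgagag
Ccr6, 17:8242276-8242525, plus strand: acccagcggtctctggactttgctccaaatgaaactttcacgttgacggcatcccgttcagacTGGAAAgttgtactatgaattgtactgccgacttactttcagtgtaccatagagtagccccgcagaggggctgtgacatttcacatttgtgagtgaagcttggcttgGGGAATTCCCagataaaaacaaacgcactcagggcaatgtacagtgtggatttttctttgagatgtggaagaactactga
Itgb8, 12:119238277-119238526, minus strand: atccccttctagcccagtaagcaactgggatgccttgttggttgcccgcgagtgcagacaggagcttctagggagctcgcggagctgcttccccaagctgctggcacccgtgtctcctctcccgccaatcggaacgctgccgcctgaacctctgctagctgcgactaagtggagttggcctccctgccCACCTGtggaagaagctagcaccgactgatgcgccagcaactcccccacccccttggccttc
Ifng, 10:118440796-118441045, plus strand: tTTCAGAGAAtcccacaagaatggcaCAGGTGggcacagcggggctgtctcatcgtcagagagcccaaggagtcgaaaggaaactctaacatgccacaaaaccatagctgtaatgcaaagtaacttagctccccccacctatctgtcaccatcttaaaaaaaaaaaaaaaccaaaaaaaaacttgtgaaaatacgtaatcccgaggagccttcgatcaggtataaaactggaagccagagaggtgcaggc
Il2, 3:37125955-37126204, minus strand: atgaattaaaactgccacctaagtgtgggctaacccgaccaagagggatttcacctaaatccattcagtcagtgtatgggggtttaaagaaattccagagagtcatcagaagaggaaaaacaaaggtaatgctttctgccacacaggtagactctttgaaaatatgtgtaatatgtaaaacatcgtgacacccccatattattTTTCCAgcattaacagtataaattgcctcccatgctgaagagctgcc

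The motifs were searched on both strands as the letters GGAAGT for ETS factors, TGTGGTT for RUNX, TGTTTAC for forkhead factors, TGANTCA for AP-1, TGGAAA for NFAT, GGGNNTTCC for NF-kB, TTCNNNGAA for STAT5, CTTTGAT for TCF/LEF and CACCTG for E proteins. Counting the base before the start as -1, the Il2 promoter held 1 NFAT match at -47 to -42, on the opposite strand. The Ifng promoter held the STAT5 letters at -249 to -241 and the E protein letters at -224 to -219. The peak named for each promoter below covers 250 of the 250 printed bases of Itgb8, 159 of Ifng, 118 of Gm30327, 63 of Ccr6 and 36 of Il2. The Il2 match lies outside that peak and outside every tested peak, while both Ifng matches lie within theirs. In Ccr6 the NFAT letters stood at -187 to -182, and the 2 NF-kB matches at -80 to -72 and -79 to -71 overlap as both strands of 1 stretch; all lie outside the named Ccr6 peak, and the NF-kB stretch outside every tested peak. Gm30327 and Itgb8 each had 1 E protein match, within the named peak. Over all 32851 promoter windows of the same length, 18.6% held the NFAT letters, 17.2% the E protein letters, 4.98% the NF-kB letters and 7.02% the STAT5 letters. In the 552 promoters with a peak called higher in Treg, ETS letters were found in 14.9%, compared with 27.2% of the 1909 promoters with a peak called lower and 24.5% of the 11540 with any tested peak. NF-kB letters were found in 8.15% of the promoters with a higher peak, 6.91% of those with a lower peak and 6.71% of those with any. A match is a description of these letters and says nothing of binding.

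The deletion was read from X:7570739-7571052 (coordinates are mm10 throughout), a peak of Ppp1r3f, the gene next to Foxp3. It had 0 reads in both Treg libraries and both preTreg libraries of the deficient mice, and 139.6 and 117 in Treg libraries against 48.0 and 52.1 in preTreg libraries of the sufficient mice T9 and T10. The genotype labels of all 8 libraries matched these values, and in the sufficient mice both Treg libraries were above both preTreg libraries. Over the 4 mice the fold was 0.67 ± 0.43 and was not called by limma (adjusted p = 0.298), while edgeR called it (log2 fold 1.36, adjusted p = 0.000275), as did DESeq2 (log2 fold 1.33, adjusted p = 0.0098), and leaving out single mice gave limma folds from 0.38 to 0.89. Deficient libraries without reads carry no information on the step at this peak.

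The Foxp3 locus, taken as the gene body with 15 kb on each side, held 12 tested peaks, of which 7 were higher in Treg, 0 lower and 5 not called. Over all peaks 25.0% were called, 12.6% higher and 12.4% lower. Inside Foxp3 the peak at X:7583902-7584149 had 207, 169.9, 84.0 and 112 in Treg, against 3.69, 2.76, 2.57 and 0 in preTreg. Its neighbour at X:7584167-7584401 had 149.6, 143, 66.8 and 71.8 in Treg, against 0, 0.919, 1.71 and 1.77 in preTreg. Both were near the floor of the assay in every preTreg library and open in every Treg library. The fitted log2 folds were 5.59 ± 0.33 (limma adjusted p = 3.13e-09) and 5.71 ± 0.41 (adjusted p = 4.2e-08). In the 8 libraries of CD25-negative cells labelled mSP and smSP from the same mice these peaks averaged 0.841 ± 1.12 and 0.870 ± 1.72 (SD, n = 8).

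At the 3′ end of Foxp3, within the gene body of the neighbouring gene Ccdc22, a peak at X:7595027-7595312 had 59.6, 44.2, 94.1 and 95.2 in Treg, against 0.923, 1.84, 2.57 and 0.883 in preTreg. The next peak, at X:7595380-7595548, had 26.8, 27.8, 45.5 and 55.9 in Treg, against 2.77, 0.919, 2.57 and 0.883 in preTreg. Treg and preTreg libraries were again wholly apart, with log2 folds of 4.85 ± 0.36 and 3.85 ± 0.42 (limma adjusted p = 3.36e-08 and 2.07e-06). These peaks were lower in the Treg libraries of deficient mice than in those of sufficient mice, whereas the 2 inside Foxp3 were higher there. The difference of the step between genotypes was not called at any of the 4 (limma adjusted p from 0.0859 to 0.917).

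Upstream of Foxp3, within Ppp1r3f, a peak at X:7567524-7567768 had 93.6, 117, 74.8 and 104 in Treg, against 6.46, 12.9, 27.4 and 19.4 in preTreg, a log2 fold of 2.63 ± 0.29 (limma adjusted p = 1.38e-05). The preTreg libraries of the deficient mice were below those of the sufficient mice, and the step was larger by 1.49 on the log2 scale in deficient mice (limma adjusted p = 0.0197; 0.478 without T9, 0.129 without T7 and 0.0589 without the mouse block). A neighbouring peak at X:7566433-7566684 averaged 124 ± 17.7 in Treg and 36.7 ± 6.30 in preTreg (SD, n = 4 each), with a log2 fold of 1.73 ± 0.15 (limma adjusted p = 2.48e-07). The peak at X:7572485-7572749 had 137, 138, 97.1 and 77.3 in Treg, against 74.8, 87.3, 74.5 and 75.9 in preTreg, so the populations were close in the sufficient mice. Its log2 fold of 0.48 ± 0.15 was called (limma adjusted p = 0.0249), but not without T9, T7 or T8 (adjusted p = 0.0552, 0.121 and 0.134), nor by DESeq2 (0.0969). The remaining peaks, 1 at the promoter of Ppp1r3f, 1 beside it, 1 in Flicr and 1 at the promoter of Ccdc22, had log2 folds between -0.17 and 0.12 and were not called; without T7 the Ppp1r3f promoter peak was called, at -0.23 (limma adjusted p = 0.0489).

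**Figure D1:**
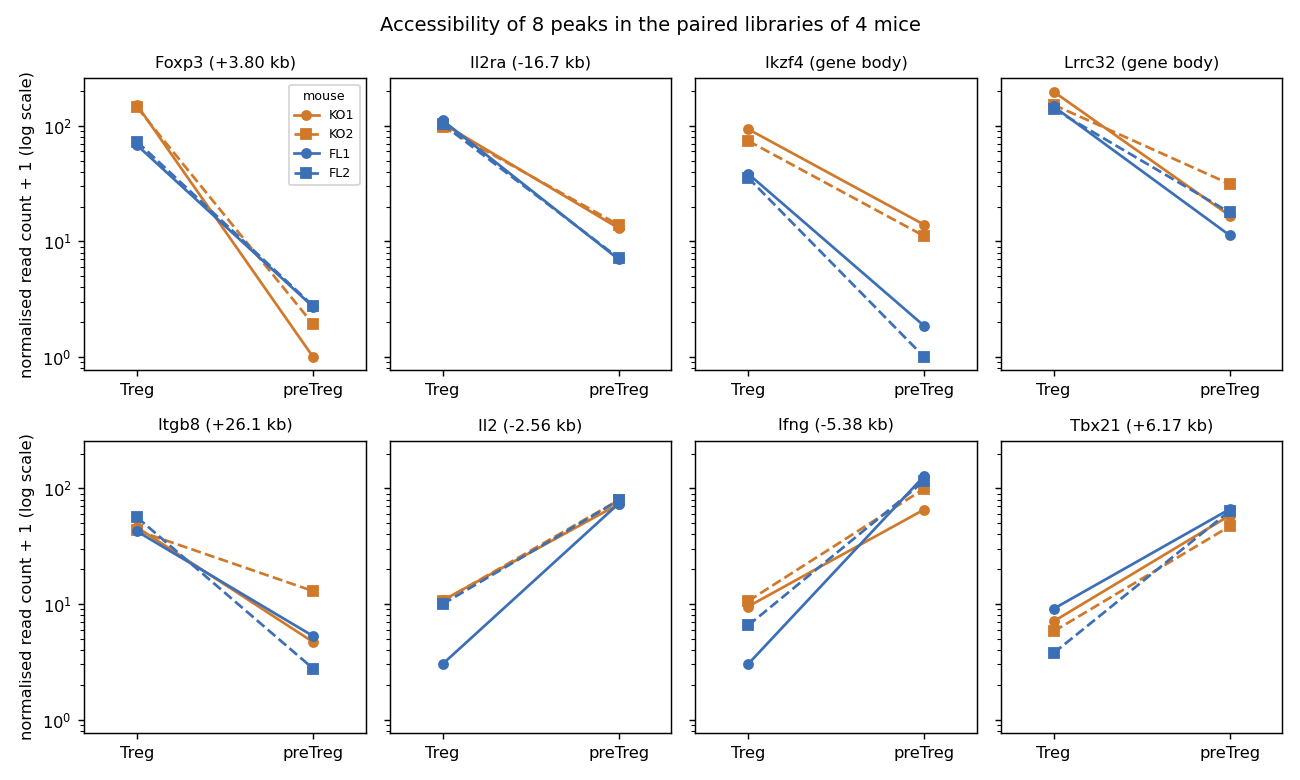
Normalised read count plus 1, on a log scale, of 8 peaks in the Treg library (left) and the preTreg library (right) of each mouse. Lines join the libraries of 1 mouse, orange for CNS4-deficient (KO1 is T7, KO2 is T8) and blue for CNS4-sufficient mice (FL1 is T9, FL2 is T10); titles give the gene and, where known, the distance from the RefSeq start. The peaks of Foxp3, Il2ra, Ikzf4, Lrrc32 and Itgb8 were higher in Treg and those of Il2, Ifng and Tbx21 lower in all 4 mice.

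Il2ra, which encodes CD25, had 12 of 19 tested peaks higher in Treg and 1 lower, although preTreg cells were sorted for CD25. The largest fold was at a peak 16550 bp outside the gene body, 2:11625977-11626242, with 103, 97.0, 110.2 and 102 in Treg, against 12.0, 12.9, 6.00 and 6.18 in preTreg. Its log2 fold was 3.42 ± 0.24 (limma adjusted p = 1.61e-08), and the level in preTreg was near the 5.15 ± 4.13 of the libraries labelled mSP and smSP (SD, n = 8). The promoter peak at 2:11642734-11642948 had 237, 218, 185 and 190.5 in Treg, against 125, 119, 90.8 and 101 in preTreg. It was open in both populations, and the log2 fold was 0.93 ± 0.11 (limma adjusted p = 5.15e-06). The 1 lower peak, at 2:11653432-11653722 in the gene body, had 332, 359, 369 and 402 in Treg, against 557, 494, 362 and 426 in preTreg, and the values were apart in the deficient mice but close in the sufficient mice. That call (log2 fold -0.32 ± 0.11, limma adjusted p = 0.0446) was lost without T7 or T8, at equal library totals and with edgeR, with adjusted p values of 0.196, 0.166, 0.0952 and 0.0543.

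Ikzf4 encodes Eos, an Ikaros family factor that works with Foxp3, and 2 of its 4 peaks were higher in Treg. In the peak at 10:128642852-128643044 the values were 92.4, 73.0, 37.4 and 34.5 in Treg, against 12.9, 10.1, 0.856 and 0 in preTreg. Every Treg library was above every preTreg library, and within each population both deficient mice were above both sufficient mice. The log2 fold was 3.75 ± 0.40 (limma adjusted p = 2.38e-06), and the difference between genotypes, -2.02, was not called (adjusted p = 0.0743). The stronger Ikzf4 peak at 10:128637023-128637498 averaged 607 ± 35.1 in Treg and 328 ± 41.3 in preTreg (SD, n = 4 each; log2 fold 0.89 ± 0.07, limma adjusted p = 1.01e-07). All 4 Treg libraries were thus above all 4 preTreg libraries at the leading peaks of Foxp3, Il2ra and Ikzf4. These peaks lead by their fold in the same libraries, and the Foxp3 reporter and CD25 were used in the sort. Their separation is therefore no check of the labels.

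Of all 72364 peaks, 18071 were called, 9120 higher and 8951 lower in Treg, and the median log2 fold was -0.03. Treg and preTreg libraries did not overlap at 24.7% of tested peaks, 12.5% with Treg above and 12.2% with Treg below. The median log2 fold was 0.87 among the higher and -0.71 among the lower peaks, and 3539 higher and 2661 lower peaks changed by at least 1 on the log2 scale. Peaks at or near 0 in the other population were few, since 49 higher peaks had a preTreg mean under 5 and 88 lower peaks a Treg mean under 5. The same direction was seen in all 4 mice for 8710 of the higher and 8453 of the lower peaks. The higher peaks lay in or near 3819 genes and the lower ones in or near 4983, and 1181 genes had peaks of both kinds. Without T7, whose Treg library stood apart, 18236 peaks were called, 9242 higher and 8994 lower, and the DESeq2 test called 10950.

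Higher and lower peaks differed in position. Of the 12783 tested peaks at promoters, 4.14% were higher in Treg and 12.4% lower. Within gene bodies, 13.4% of 42223 peaks were higher and 12.3% lower, and outside genes 17.5% of 14934 were higher and 12.6% lower. Promoter peaks were thus 6.00% of the higher peaks, 18.3% of the lower peaks and 18.3% of all tested peaks. The median distance to the nearest start was 17.9 kb for higher peaks, 10.1 kb for lower peaks and 4.99 kb for all. Promoter windows were not used for chromosome 18, which these shares leave out. The median absolute log2 fold was 0.148 at promoters, 0.261 within gene bodies and 0.314 outside genes. Shares by position were taken at the main scaling alone. At equal library totals the calls over all peaks moved to 10152 higher and 7482 lower. On the X chromosome 16.2% of the 1505 tested peaks were called.

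**Figure D2:**
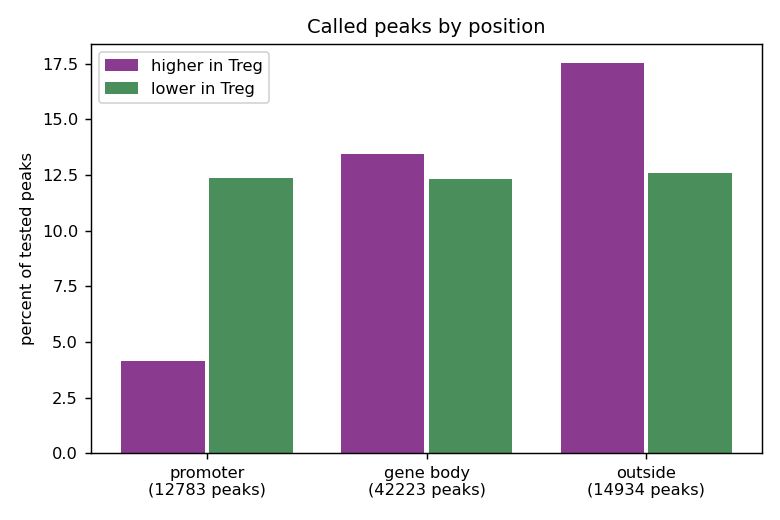
Percent of tested peaks called higher (purple) or lower (green) in Treg by position, namely overlapping a promoter window, within a gene body or outside genes, with the number of tested peaks under each pair of bars. Higher peaks were 4.14% of promoter peaks and 17.5% of peaks outside genes, while the lower share stayed between 12.3% and 12.6%.

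Set beside the CD25-negative libraries, the called peaks took different places. Peaks higher in Treg had a median level of 67.6 in Treg, 34.0 in preTreg and 43.1 in the libraries labelled mSP and smSP. Peaks lower in Treg had a median of 51.7 in Treg, 94.6 in preTreg and 78.5 in the CD25-negative libraries. Over all tested peaks the medians were 53.3, 52.0 and 54.3. A CD25-negative mean under 5 was seen for 306 of the higher peaks (3.47%), 201 of the lower peaks (2.32%) and 735 of all tested peaks (1.05%). These medians and counts also leave out chromosome 18, so they cover 8821 higher, 8651 lower and 69940 tested peaks. No test was made on these levels.

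Genes of the Treg surface and of Treg function had 107 of 291 tested peaks higher (36.8%, beside 12.6% over all peaks) and 38 lower (13.1%, beside 12.4%), with a median log2 fold of 0.22, and the members went different ways. Among 2242 genes with at least 8 tested peaks, Lrrc32 and Itgb8 were 2 of the 5 in which every tested peak was called higher. Lrrc32 encodes GARP, which holds latent TGF-beta on the Treg surface, and its 14 peaks had log2 folds from 1.27 to 3.13. The strongest fold was at 7:98491725-98492052 in the gene body, with 196, 151, 146 and 139 in Treg, against 15.7, 30.3, 10.3 and 16.8 in preTreg (3.13 ± 0.21, limma adjusted p = 2.19e-08). Itgb8 encodes integrin beta 8, which releases TGF-beta from its latent form, and its 12 peaks had log2 folds from 0.72 to 3.10.

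The Itgb8 promoter printed above lies under a peak with 457, 419, 417 and 413 in Treg, against 190.2, 169, 193 and 169 in preTreg. All Treg libraries were above all preTreg libraries, and the CD25-negative libraries averaged 41.7 ± 9.18 (SD, n = 8), so preTreg stood between them. The log2 fold was 1.2397 ± 0.09 (limma adjusted p = 1.43e-08). A peak inside the gene at 12:119212148-119212290 had 45.0, 42.2, 41.5 and 55.2 in Treg, against 3.69, 11.9, 4.28 and 1.77 in preTreg (3.10 ± 0.37, adjusted p = 7.44e-06). There preTreg was at the level of the CD25-negative libraries, 5.62 ± 2.57. The TGF-beta list, which holds both genes, had 48 of 182 peaks higher (26.4%) and 22 lower (12.1%, close to the 12.4% over all peaks). Its median was 0.06, and 14 of the higher peaks were those of Lrrc32 and 12 those of Itgb8. Tgfbr2, a receptor gene, had 5 of 23 peaks higher and 4 lower (median 0.05), and its most reduced peak was lower, at 26.6 ± 7.34 in Treg and 68.8 ± 20.4 in preTreg (SD, n = 4 each; log2 fold -1.33 ± 0.24, limma adjusted p = 0.000458).

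**Figure D3:**
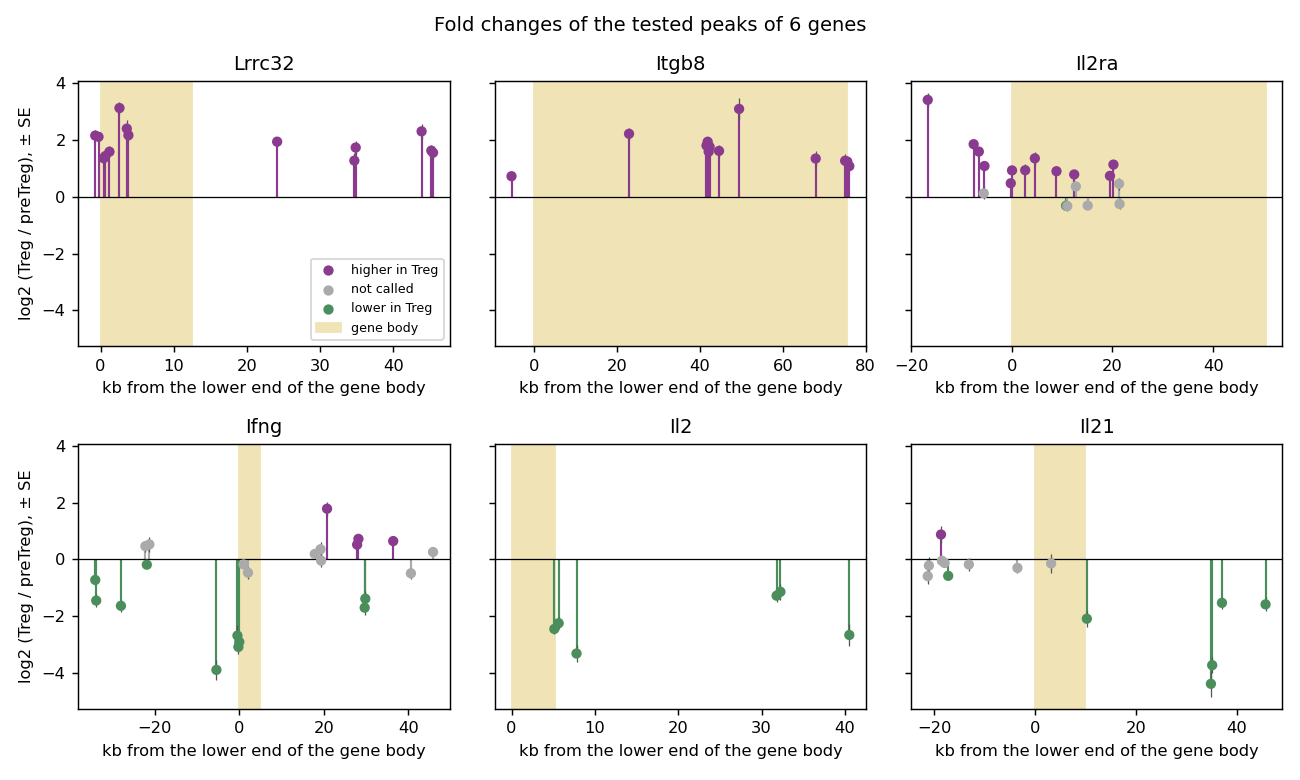
Log2 fold of Treg over preTreg with its standard error for each tested peak of 6 genes, by distance in kb from the lower end of the gene body (shaded), coloured by call. All 14 peaks of Lrrc32 and all 12 of Itgb8 were higher, Il2ra had 12 of 19 higher, and Il2 had all 6 lower, while Ifng and Il21 held peaks of both directions.

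Other genes of this list moved less evenly. Swap70, a signalling adaptor, had 15 of 17 peaks higher and 0 lower, Gpr83, an orphan receptor gene of Treg cells, 4 of 5, and Izumo1r, the gene of folate receptor 4, 7 of 12 with 1 lower. Ctla4, whose product takes co-stimulatory ligands from other cells, had 11 of 21 higher and 2 lower. Its peak at 1:60912198-60912822 had 325, 244, 216 and 250.5 in Treg, against 102, 92.8, 83.1 and 83.8 in preTreg, with no overlap (log2 fold 1.497 ± 0.11, limma adjusted p = 3.52e-08). Next to it, Icos, a co-stimulatory receptor gene, had 3 of 24 higher and 9 lower, and Cd28 6 of 28 higher and 5 lower. Il10, the gene of an inhibitory cytokine of effector Treg cells, had 0 of 6 peaks higher and 5 lower. A peak 16137 bp outside Il10 had 47.4, 47.0, 21.2 and 18.6 in Treg, against 109.9, 84.6, 143 and 141 in preTreg, and the CD25-negative libraries averaged 6.56 ± 6.47 (SD, n = 8). Tigit, an inhibitory receptor gene, had 3 of 23 higher and 4 lower, and its most reduced peak had 24.3, 18.2, 30.3 and 15.2 in Treg, against 79.4, 50.5, 71.9 and 62.7 in preTreg.

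Transcription factor genes of Treg cells had 173 of 637 peaks higher (27.2%) and 52 lower (8.16%), beside 12.6% and 12.4% over all peaks. The median log2 fold of the list was 0.19. Some genes with many peaks carried much of the higher count. Foxp1, a forkhead factor gene that maintains naive T cells, had 52 of 94 peaks higher and 6 lower, Bach2, a repressor of effector programmes, 36 of 77 and 5, and Ikzf2, which encodes Helios, 25 of 55 and 4. Runx1 and Runx3, whose proteins pair with CBF-beta, had 0 of 39 and 0 of 17 peaks higher and 12 and 4 lower. The most reduced Runx1 peak, at 16:92653928-92654188, had 9.73, 15.4, 9.10 and 2.76 in Treg, against 83.1, 79.0, 66.8 and 65.3 in preTreg (log2 fold -3.04 ± 0.28, limma adjusted p = 4.41e-07). The CD25-negative libraries were as low as Treg, with 6.07 ± 4.13 (SD, n = 8). A Runx3 peak was 22.5 ± 3.69 in Treg and 107 ± 18.0 in preTreg (SD, n = 4 each; -2.20 ± 0.18, adjusted p = 7.08e-08). Ikzf3, the Aiolos gene, had none of 14 called.

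Cytokine genes of helper T cells had 36 of 78 peaks lower in Treg (46.2%, beside 12.4% over all peaks) and 4 higher (5.13%, beside 12.6%). Their median log2 fold was -0.44. The higher count was 2 without T8. Il2 had all 6 peaks lower, with log2 folds from -3.31 to -1.14. Its promoter peak had 26.8, 20.2, 27.3 and 17.3 in Treg, against 145, 134, 122 and 109 in preTreg, with every Treg library below every preTreg library (-2.45 ± 0.17, limma adjusted p = 1.3e-08). A peak 2449 bp outside the gene had 9.73, 9.60, 2.02 and 8.97 in Treg, against 72.0, 78.1, 72.8 and 77.7 in preTreg, and the CD25-negative libraries averaged 7.995 ± 4.01 (SD, n = 8). At this peak preTreg stood apart and Treg was near the level of the CD25-negative cells. The log2 fold was -3.31 ± 0.30 (adjusted p = 3.6e-07).

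Il21, the gene of a helper cytokine, had 6 of 14 peaks lower and 1 higher. The largest fold of the list was at 3:37257569-37257728, 24933 bp outside Il21, with 3.65, 0.960, 1.01 and 0 in Treg, against 38.8, 34.0, 43.7 and 54.7 in preTreg. Treg libraries were at or near 0 there, and the log2 fold was -4.38 ± 0.46 (limma adjusted p = 1.24e-06). Cd40lg, which encodes the CD40 ligand of helper cells, had 10 of 13 lower and 0 higher, and Tnf had 2 of 2 lower. Tnfsf11, which encodes RANKL, had 1 of 13 higher and 3 lower, and its higher peak was 67.5 ± 9.95 in Treg and 17.6 ± 9.22 in preTreg (SD, n = 4 each). Il3, Il4, Il13 and Il22 had no peak assigned.

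Type 1 and cytotoxic effector genes had 49 of 151 peaks lower (32.5%, beside 12.4% over all peaks) and 17 higher (11.3%, beside 12.6%). Their median was -0.23, and 11 peaks were higher without T9. Tbx21 encodes T-bet, the factor of type 1 helper cells, and all 3 of its peaks were lower. At 11:97109032-97109283 the values were 6.08, 4.80, 8.09 and 2.76 in Treg, against 57.2, 46.0, 65.1 and 62.7 in preTreg (log2 fold -3.25 ± 0.30, limma adjusted p = 3.14e-07). Cxcr3, a chemokine receptor gene that T-bet activates, had 2 of 2 lower, and Nkg7, a cytotoxic granule gene, 2 of 2. At Ifng 10 of 23 peaks were lower and 4 higher. The Ifng promoter peak had 8.51, 6.72, 9.10 and 21.4 in Treg, against 87.7, 107, 85.6 and 102 in preTreg, so no library overlapped (-3.08 ± 0.24, adjusted p = 7.08e-08). A peak 5191 bp outside the gene had 8.51, 9.60, 2.02 and 5.52 in Treg, against 64.6, 98.3, 127 and 115 in preTreg (-3.89 ± 0.35, adjusted p = 1.65e-06). On the other side of Ifng, 15872 bp outside it, a peak was higher, at 57.8 ± 11.1 in Treg and 16.2 ± 4.48 in preTreg (SD, n = 4 each).

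**Figure D4:**
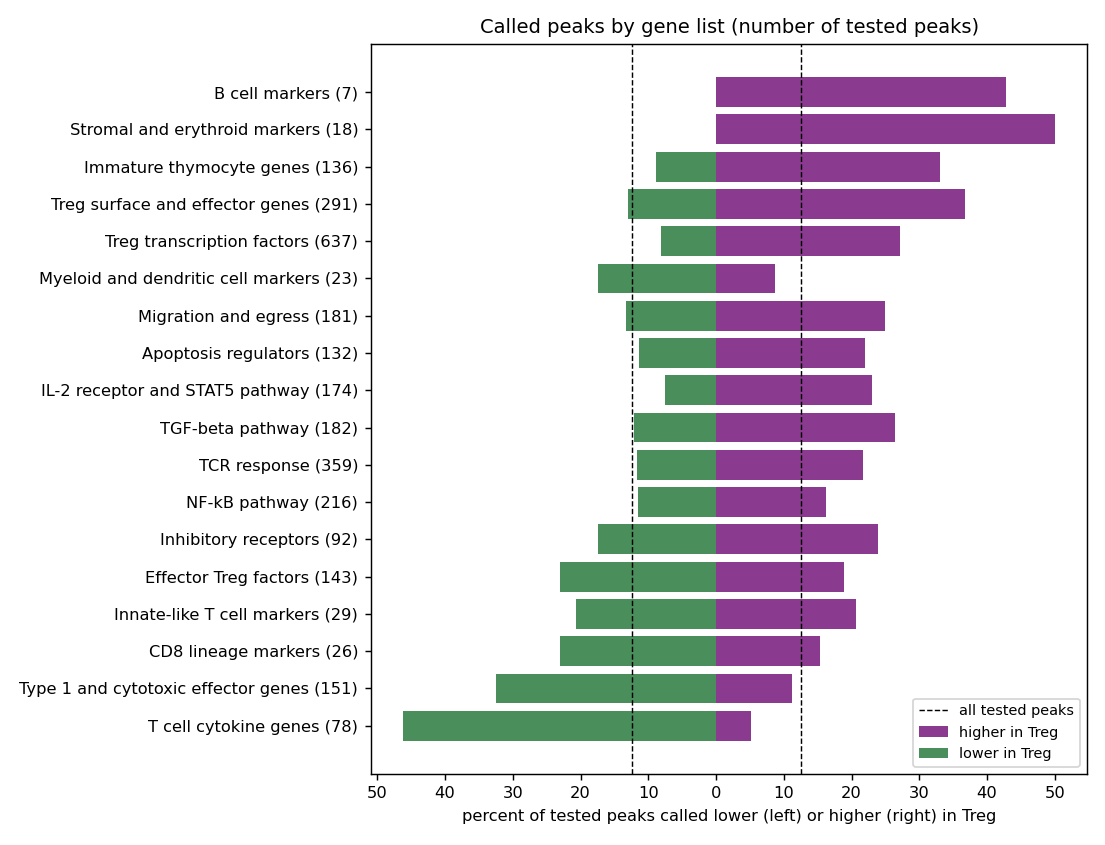
Percent of tested peaks called lower (green, to the left) or higher (purple, to the right) in Treg for 18 gene lists, with the number of tested peaks in brackets and dashed lines at 12.4% and 12.6%, the shares over all tested peaks. T cell cytokine genes and type 1 effector genes lie furthest to the left, and Treg surface genes have 36.8% higher; the marker lists of other cells rest on 7 to 29 peaks each.

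Genes of the IL-2 receptor and STAT5 pathway had 40 of 174 peaks higher (23.0%) and 13 lower (7.47%), with a median of 0.09. Over all peaks the shares were 12.6% and 12.4%, and 12 of the higher peaks of the list were those of Il2ra. Il2rb, the beta chain gene, had 4 of 10 higher and 2 lower. Its most reduced peak had 23.1, 21.1, 8.09 and 9.66 in Treg, against 109, 93.7, 74.5 and 64.4 in preTreg (log2 fold -2.49 ± 0.21, limma adjusted p = 1.63e-07). Stat5b, a transcription factor that IL-2 activates, had 7 of 22 higher and 0 lower, and Cish, a feedback inhibitor of the pathway, 4 of 11 and 0. The Stat5b peak at 11:100831538-100831712 had 80.3, 40.3, 40.5 and 40.7 in Treg, against 12.9, 2.76, 17.1 and 19.4 in preTreg, with the Treg library of T7 well above the others. Socs3, a feedback inhibitor of cytokine receptors, had 1 of 6 peaks called, a lower one with 103 ± 36.7 in Treg and 307 ± 33.9 in preTreg (SD, n = 4 each; log2 fold -1.64 ± 0.16, adjusted p = 3.89e-06). Il2rg and Jak3 had no called peak.

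TCR response genes had 78 of 359 peaks higher (21.7%, beside 12.6% over all peaks) and 42 lower (11.7%, close to the 12.4% over all peaks). Their median was 0.05. Dusp4, a phosphatase gene of the MAP kinase pathway, had 26 of 35 peaks higher and 0 lower, and Dusp5 10 of 24 and 0. A peak 25366 bp outside Dusp4 had 101, 88.3, 119 and 99.4 in Treg, against 17.5, 28.5, 20.6 and 13.2 in preTreg (log2 fold 2.34 ± 0.20, limma adjusted p = 1.81e-07). Of the NFAT genes, whose proteins carry the calcium signal to the nucleus, Nfatc1 had 12 of 39 peaks lower, Nfatc2 7 of 17 and Nfatc3 1 of 6, with 0 higher in each and the other peaks not called. At the most reduced Nfatc1 peak the values were 53.5, 26.9, 26.3 and 17.9 in Treg, against 300.0, 274, 265 and 270.1 in preTreg (-3.22 ± 0.18, adjusted p = 5.22e-09), and 14.8 ± 4.58 in the CD25-negative libraries (SD, n = 8). Tox, a nuclear factor gene of CD4 lineage development, had 21 of 58 higher and 3 lower, and Nr4a1, an early target of the TCR, 5 of 12 and 0. Egr2 had none of 7 called.

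Inhibitory receptor genes had 22 of 92 peaks higher (23.9%) and 16 lower (17.4%), beside 12.6% and 12.4% over all peaks. Of the higher peaks, 11 were those of Ctla4 and 3 those of Tigit, and both genes are also in the Treg surface list. Their median of -0.00 turned positive under other scalings, up to 0.04. Pdcd1, which encodes PD-1, had 0 of 16 higher and 5 lower. A peak 39222 bp outside Pdcd1 had 142, 156, 138 and 141 in Treg, against 589, 454, 395 and 367 in preTreg (log2 fold -1.62 ± 0.11, limma adjusted p = 9.08e-09), and the CD25-negative libraries were at 555 ± 62.9 (SD, n = 8). NF-kB pathway genes had 35 of 216 higher and 25 lower (median 0.04), shares of 16.2% and 11.6%, close to those over all peaks. The lower count was 16 without T9, 15 without T10 and 14 without T8. Rel, which encodes the NF-kB subunit c-Rel, had 5 of 11 higher and 0 lower. A peak 7776 bp outside Rel had 131, 101, 131 and 169 in Treg, against 36.0, 36.8, 37.7 and 32.7 in preTreg (1.85 ± 0.17, adjusted p = 2.56e-07), whereas Cyld, a deubiquitinase gene that restrains NF-kB, had 0 of 11 higher and 5 lower.

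Genes of effector Treg cells were mixed, with 27 of 143 peaks higher (18.9%) and 33 lower (23.1%) and a median of -0.09. Over all peaks the shares were 12.6% and 12.4%. Ccr6 had 4 of 4 higher, and the promoter peak that covers the last 63 of the bases printed above had 40.1, 30.7, 31.4 and 22.8 in Treg, against 10.2, 9.19, 16.3 and 6.18 in preTreg (log2 fold 1.54 ± 0.29, limma adjusted p = 0.000616). Maf, a factor gene of IL-10 producing cells, had 0 of 11 higher and 5 lower, and a peak 35814 bp outside it was 7.98 ± 4.78 in Treg and 52.4 ± 10.3 in preTreg (SD, n = 4 each). Cd44, an adhesion receptor gene of activated cells, had 4 of 24 higher and 11 lower. Rora, a nuclear receptor gene, had 10 of 41 higher and 7 lower, and its most increased peak had 80.3, 90.2, 111 and 133 in Treg, against 20.3, 8.27, 31.7 and 23.8 in preTreg (2.36 ± 0.22, adjusted p = 7.53e-07).

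Migration genes had 45 of 181 higher (24.9%, beside 12.6% over all peaks) and 24 lower (13.3%, close to the 12.4% over all peaks). Their median was 0.11. Ccr7, which encodes the chemokine receptor that leads cells to the thymic medulla and lymph nodes, had 10 of 23 higher and 2 lower. The leading Ccr7 peak averaged 88.3 ± 23.5 in Treg and 15.9 ± 3.63 in preTreg (SD, n = 4 each). S1pr1, the exit receptor gene, had 5 of 34 higher and 8 lower. Apoptosis regulators had 29 of 132 higher and 15 lower (median 0.09). Bcl2l1, the gene of the survival factor Bcl-xL, had a peak at 119 ± 14.4 in Treg and 32.5 ± 7.11 in preTreg, and Fasl, the gene of a death ligand, 2 of 19 higher and 8 lower.

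Genes of immature thymocytes had 45 of 136 peaks higher (33.1%) and 12 lower (8.82%), beside 12.6% and 12.4% over all peaks. Their median was 0.31, and it was 0.07 in deficient and 0.59 in sufficient mice. The higher count was 21 without T9, 18 without T10, 18 in the deficient mice alone and 21 by DESeq2 with all mice. Higher calls over all peaks fell in these settings too, from 9120 to 6830, 6765, 6853 and 6037. Sox4 had 9 of 13 higher, Dntt, which adds bases during receptor rearrangement, 8 of 14, and Arpp21 10 of 18, with 0 lower in each. The Rag2 peak, of the recombinase gene, averaged 38.3 ± 5.16 in Treg and 13.4 ± 2.62 in preTreg (SD, n = 4 each; log2 fold 1.46 ± 0.25, limma adjusted p = 0.000211), and 39.7 ± 12.0 in the CD25-negative libraries (n = 8). Cd4 had 3 of 5 lower, with 24.6 ± 6.65 in Treg and 65.4 ± 5.77 in preTreg at its most reduced peak. Cd8b1 had 3 of 3 higher, and the Cd8a promoter peak had 28.0, 50.9, 46.5 and 62.1 in Treg, against 12.9, 16.5, 14.6 and 16.8 in preTreg. The summed signal of the list ran from 9884 to 12456 in Treg and from 10192.5 to 10766 in preTreg, and both sufficient Treg libraries were above the deficient ones.

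Markers of other cells moved with the populations in some cases. These lists rest on 7 to 29 peaks each, and over all tested peaks 12.6% were higher and 12.4% lower. B cell genes had 3 of 7 peaks higher and 0 lower, with a summed signal of 322 to 373 in Treg, 172 to 235 in preTreg and 367 to 464 in the CD25-negative libraries, while Ms4a1 and Cd79b had no peak assigned. Stromal and erythroid genes had 9 of 18 higher and 0 lower, with 1469 to 1523 in Treg and 1096 to 1167 in preTreg, 6 of the 9 in Pecam1, and Krt5, Krt8 and Pdgfra had no peak assigned. Myeloid and dendritic cell genes had 2 of 23 higher and 4 lower (summed signal 1116 to 1385 in Treg and 1108 to 1264 in preTreg), and innate-like T cell genes 6 of 29 each way (1392 to 1563 in Treg and 1637 to 1746 in preTreg). Lyz2, Csf1r, Itgax and Fcer1g of the myeloid list and Tcrg-C1 and Trdc of the innate-like list had no peak assigned. CD8 lineage genes had 4 of 26 higher and 6 lower (1290 to 1370 in Treg and 1443 to 1628 in preTreg). Itgam, an integrin gene of myeloid cells, had 3 of 4 lower, and its most reduced peak was 3.08 ± 0.395 in Treg and 39.7 ± 7.99 in preTreg (SD, n = 4 each; log2 fold -3.30 ± 0.34, limma adjusted p = 1.15e-06), while Flt3 and Zbtb46 had 1 higher peak each. Of the innate-like genes, Blk had 2 of 2 peaks higher, the larger at 99.4 ± 35.8 in Treg and 24.9 ± 5.93 in preTreg (SD, n = 4 each; log2 fold 1.91 ± 0.24, limma adjusted p = 3.85e-05), and Zbtb16 had 2 of 3 higher and 1 lower. Il23r, a cytokine receptor gene, had 1 of 7 lower, a peak 23010 bp outside it with 15.8, 22.1, 16.2 and 35.9 in Treg, against 219.7, 241, 188 and 223 in preTreg (-3.29 ± 0.18, adjusted p = 1.18e-09). The part of other cells in the counts above was not tested.

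Among all called peaks moving the same way in 4 mice, with 1 peak per gene, the largest folds outside the Foxp3 locus were in genes of varied kinds. The Gm30327 promoter peak had 66.9, 50.9, 34.4 and 34.5 in Treg, against 0, 2.76, 2.57 and 0 in preTreg (log2 fold 4.58 ± 0.47, limma adjusted p = 1.24e-06). Gm36174, Suclg2, Ppm1l, Wdr70 and Ntn4 followed, with log2 folds from 4.54 to 4.03. In the other direction Kcnc2, a potassium channel gene, had a peak with 9.73, 3.84, 0 and 1.38 in Treg, against 190.2, 103, 104 and 109 in preTreg (-5.20 ± 0.37, adjusted p = 6.7e-08). A Samd12 peak had 6.08, 4.80, 14.2 and 6.21 in Treg, against 195, 238, 262 and 276 in preTreg (-4.88 ± 0.21, adjusted p = 1.47e-10). The peak over Olfr157, an olfactory receptor gene, Pdzrn3, Gnptab, Chn1os3, Crybg2 and Dmrta1 followed, with log2 folds from -4.84 to -4.46. The CD25-negative libraries were low as well at Samd12 (9.91 ± 6.11) and Olfr157 (5.04 ± 4.83, SD, n = 8). At Pdzrn3 they averaged 44.5 ± 35.2, with 9.86 to 19.6 in those labelled mSP and 58.7 to 104.8 in those labelled smSP. For T8 the titles and descriptions disagree on which library is mSP and which is smSP, and the titles were used here.

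Genes whose peaks moved together were also picked by the share of called peaks. Besides Lrrc32 and Itgb8, all 8 peaks of Arhgap20, all 12 of the scaffold gene Cnksr3 and all 9 of the predicted gene Gm29822 were higher. In the other direction, all 9 peaks of Galnt9, a glycosyltransferase gene, 8 of 9 of Pik3cd, which encodes a PI3-kinase subunit of lymphocytes and had 1 higher peak, 7 of 8 of Ctnnd2, 10 of 12 of Slc4a4 and 10 of 12 of Trim36 were lower. Hdac9, a histone deacetylase gene noted after its values were seen, had 18 of 19 peaks higher and 1 lower.

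The step was then compared between genotypes, since the mice differed in CNS4. The difference was called at 1941 peaks (2.68%), the step being more positive in deficient mice at 1117 (1.54%) and more negative at 824 (1.14%). With 2 mice per genotype, this test had 2 residual degrees of freedom per peak and drew most of its spread from peaks of similar signal. DESeq2 called 36, the fit without the mouse block 1004, and leaving out single mice gave 731 without T9, 754 without T10, 966 without T7 and 3713 without T8. Of the 18071 peaks called for the step, 779 (4.31%) also had a called difference, and at 0 of these did the genotypes have opposite signs. Opposite steps average out over the mice and are rarely called for the step, so this count cannot show how often the direction differed. Signs were not counted at the other called differences. The peak near LOC115487113 described below, not called for the step, had opposite signs. The median step of the higher peaks was 0.79 in deficient and 0.95 in sufficient mice, and that of the lower peaks -0.67 and -0.72.

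At single genes the differences took several forms. The peak in Bach2 at 4:32339540-32339711 had 29.2 and 22.1 in Treg against 10.2 and 11.03 in preTreg of the deficient mice, and 44.5 and 47.6 in Treg against 0.856 and 2.65 in preTreg of the sufficient mice. The log2 step was 1.19 in deficient and 4.18 in sufficient mice (difference -2.99, limma adjusted p = 0.00619; 0.121 without T9). In Tmem30c the step was -1.63 in deficient and -5.40 in sufficient mice (difference 3.77, adjusted p = 0.0122; 0.115 without T9, 0.134 without T10 and 0.0504 without T7). At Il10 it was -1.01 and -2.78 (difference 1.76, adjusted p = 0.000221), and this call held without any single mouse but not by DESeq2 (0.152). A peak 13744 bp outside LOC115487113, at 1:108040935-108041207, had 10.9 and 5.76 in Treg against 1.85 and 4.60 in preTreg of the deficient mice, and 19.2 and 27.6 in Treg against 149 and 153 in preTreg of the sufficient mice. There the preTreg libraries of the genotypes were far apart, and the log2 step was 1.17 in deficient and -2.66 in sufficient mice (difference 3.83, adjusted p = 3.2e-05). Both populations had low values in the deficient mice, so their step of 1.17 rests on little signal. Over all tested peaks the called difference was more positive in deficient mice at 1.54% and more negative at 1.14%. Of the gene lists, immature thymocyte genes had 9 of 136 differences more negative in deficient mice and 0 more positive, and TGF-beta pathway genes 10 of 182 and 0. Treg surface and effector genes had 19 of 291 more positive and 5 more negative, and myeloid markers 4 of 23 and 0. Treg transcription factor genes had 4 of 637 more positive and 12 more negative, and TCR response genes 7 of 359 and 5. No list was tested, and these counts come from the main fit alone.

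**Figure D5:**
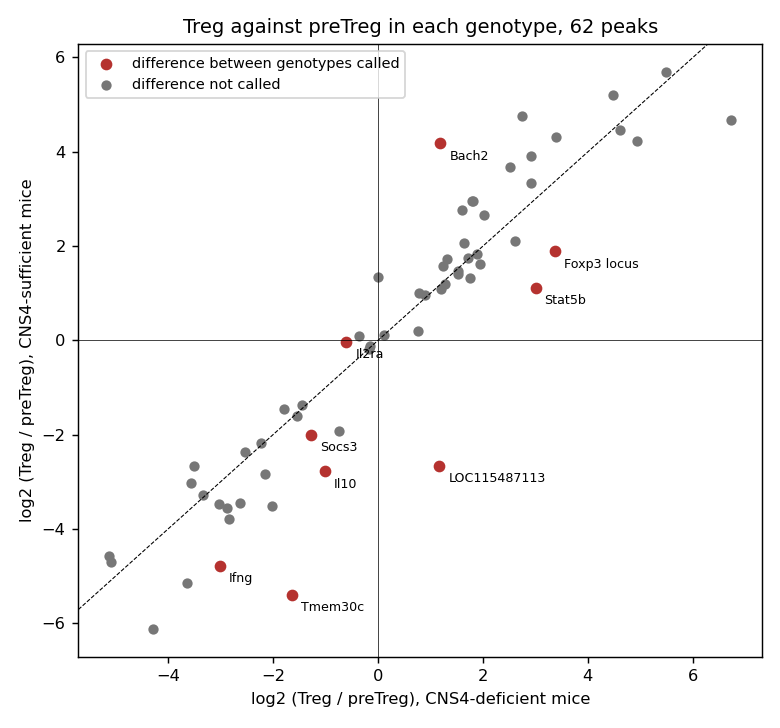
Log2 fold of Treg over preTreg in CNS4-deficient mice (horizontal axis) and CNS4-sufficient mice (vertical axis) for 62 peaks of the named genes, with the line of equal folds dashed and red points where the difference was called. Most peaks lie near the line; Bach2, LOC115487113 and Tmem30c are among the 9 called differences.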

How the data were processed

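ATAC-seq libraries were sorted from the thymus of 4 mice, and 8 of the 16 libraries (Treg and preTreg) were used. Per the submitters' processing notes, the tools were Trimmomatic 0.36, STAR 2.5.4b, SAMtools 1.10, Genrich, DESeq2 1.24.0 and R 3.6.3, with build mm10. The deposited values are a signal, read numbers in each peak scaled by the size factor of the library, and whole reads were recovered from 100% of the values within a tolerance of 0.0001. The numbering of the peaks has gaps, so an unstated filter was applied before deposit.

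Peaks with a mean under 10 over the 8 libraries were left out (1078 peaks; 356 kept peaks had a mean of 10 to 11, of which 33 were called, and 290 dropped peaks a mean of 9 to 10; the lowest kept mean was 10.0022 and the highest dropped 9.9992). The test was limma 3.58.1 in R 4.3.3 with trend and robust spread on log2(value + 1), with the mouse as a block and Benjamini-Hochberg adjustment over 72364 peaks. The pairing comes from the mouse ID in the labels; deviations of same-mouse libraries correlated at 0.0515 in sufficient and 0.0514 in deficient mice. The difference between genotypes was an interaction in the same fit, which also gives the step of each genotype. Alternatives used edgeR 4.0.16 and DESeq2 1.42.0 on the recovered reads. The scripts were tested on simulated data. Precision was limited by 44 to 76 median reads per peak and by 4 pairs. Reads were not counted as molecules, and the parts of counting, library preparation and mice in the spread were not separated.

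A peak was given to a gene by overlap with a promoter window (RefSeq, GRCm38.p6), then the gene body, then the nearest gene within 50 kb; such a link is positional. Members and gene lists were chosen with earlier results of these data known. Named genes were the Foxp3 locus, Il2ra and Ikzf4, the 8 largest called folds in each direction that went the same way in all mice, the 5 genes with the largest share of called peaks among those with at least 8, up to 2 called peaks per direction in each list, and up to 3 peaks per direction for the genotype difference; gene counts beyond these were chosen after values were seen. Some genes of the lists are not reported here by name.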

Additional observations from a re-analysis of the deposited data

Results flagged for a closer look

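In 7 of 124 groups of 4 libraries, 1 library lay further from the others than Dixon's critical value for 4 values allows; chance flags about 1 in 20 groups. Among Treg libraries these were T7 at the Itgb8 promoter peak (457) and at Stat5b (80.3), T9 at the outer Il2 peak (2.02) and at Samd12 (14.2), and T10 at the Ifng promoter peak (21.4). Among preTreg libraries they were T8 at the Foxp3-locus peak X:7572485-7572749 (87.3) and T7 at Kcnc2 (190.2).

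The step differed between deficient and sufficient mice at 9 of the peaks reported, by limma's interaction test. The difference, deficient minus sufficient on the log2 scale, was 1.49 at the Foxp3-locus peak X:7567524-7567768, -0.57 at the Il2ra peak lower in Treg, 1.89 at Stat5b, 0.73 at Socs3, 1.76 at Il10, 1.77 at the outer Ifng peak, 3.83 near LOC115487113, 3.77 in Tmem30c and -2.99 in Bach2. Most of these calls were lost under some setting (limma adjusted p unless named). The Il2ra call was lost without T9 (0.160), without T7 (0.163) and by DESeq2 (0.528). Stat5b was lost without T9 (0.141), T10 (0.209) or T8 (0.0728) and without the mouse block (0.156). Socs3 fell to 0.37 without T9 (0.673), and was lost without T7 (0.250), without the block (0.173), by edgeR (0.0810) and by DESeq2 (0.952). The Ifng call was lost without T9 (0.501), without T7 (0.140), without the block (0.0673), with a pseudocount of 5 (0.0516) and by edgeR (0.129). Losses at the Foxp3-locus peak, Il10, Tmem30c and Bach2 are given beside their values above. At LOC115487113 the difference was kept, and without T7 the step over both genotypes was called, at -1.68 (0.0280).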

How the results depend on the processing

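Over 885 alternatives of the 56 reported peaks that were called, 871 kept direction and call, 14 lost the call and 0 reversed. Most of these peaks were named for large folds in the main fit, so this does not describe the called peaks at large. Of the 18071 peaks called, DESeq2 called 10949 with the same sign. Step counts, with the main ones 18071 (9120 higher, 8951 lower), were 10950 (6037 higher, 4913 lower) by DESeq2, 6200 (3539 and 2661) with an absolute log2 fold of at least 1, 17634 (10152 and 7482) at equal library totals, 13880 in deficient mice alone, and 13073 to 18236 (6765 to 9242 higher, 6308 to 8994 lower) when 1 mouse was left out. Without the replicate block, 19297 (9693 higher, 9604 lower) were called for the step and 1004 (595 and 409) for the genotype difference. The difference, 1941 in the main test, was called at 36 peaks (30 and 6) by DESeq2 and at 731 to 3713 (468 to 1876 and 263 to 1837) without 1 mouse; the cause was not tested. Of 109 alternatives of the 9 reported differences, 84 kept the call, 25 lost it and 0 reversed. The Ppp1r3f peak X:7574006-7574160 reversed to 0.084 in sufficient mice alone, and the LOC115487113 peak to 1.17 in deficient mice alone, where its values were low. Of 612 list counts, 46 moved by over 1.5 times, many by DESeq2 or with peaks inside gene bodies alone.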
